A study of Mus musculus with 8 samples.

Results

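The guanylate-binding protein genes, or Gbp genes, are the 10 mouse genes Gbp1 to Gbp10. They were chosen by name, and all 10 were present among the 13681 gene symbols of the deposited expression table, which lists 16589 transcripts. Where a symbol had several transcripts, the transcript of highest mean across the 8 libraries was used. Among the Gbp genes this affected Gbp4 alone, whose transcript used here averaged 20.7 FPKM (fragments per kilobase of transcript per fixed number of fragments, a level corrected for transcript length) and whose other transcript averaged 5.07 FPKM. Expression was measured by RNA sequencing of 8 thymic lymphomas, tumours of developing T cells, from C57BL/6 mice aged 10 weeks. Every mouse was labelled p53-/-, so the control tumours also lacked this tumour suppressor. The 2 control libraries came from mice labelled ΔNfl/fl;p53-/-, and their tumours received Ad-mCherry, an adenovirus carrying a fluorescent reporter. The 3 libraries of the ΔNp63 group were labelled ΔNp63Δ/Δ;p53-/- and the 3 libraries of the ΔNp73 group ΔNp73Δ/Δ;p53-/-, and both received Ad-CRE-mCherry, which adds the Cre recombinase. ΔNp63 and ΔNp73 are the forms of the p53 relatives p63 and p73 that lack the amino-terminal activation domain. Virus was injected into the tumour and tissue was taken 48 hours later. Cre and the deletion cannot be told apart in any comparison with the control group, because control tumours received no Cre. The control label does not say which gene carried the floxed allele, and nothing in the labels says that libraries came from separate mice, so p-values measure the spread between these libraries. Replicates are numbered in accession order, since the labels give no numbers.

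Guanylate-binding proteins are large GTPases whose genes are switched on by interferons, most strongly by interferon gamma. Interferon gamma acts through its receptor and the kinases JAK1 and JAK2 on genes that carry GAS elements, and it raises the transcription factor IRF1. IRF1 and the factors formed after type I interferon bind ISRE elements. The proteins gather on vacuoles and membranes of microbes inside cells and promote inflammasome activation, and they work beside a second family of interferon-induced GTPases, the immunity-related GTPases. In mice the genes lie in clusters. In the reference gene order the chromosome 3 cluster ran Gbp5, Gbp7, Gbp3, Gbp1 and Gbp2, where the reference calls Gbp1 by its newer symbol Gbp2b. The chromosome 5 cluster ran Gbp8, Gbp9, Gbp4, Gbp10 and Gbp6, followed by Gbp11, a transcribed pseudogene outside the set of 10.

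The promoters are shown because Gbp1, unlike the other genes of its chromosome 3 cluster, was below 1 FPKM in 4 of the 8 libraries. Promoter sequences were found for 5 of the 10 genes, all on chromosome 3, and cover 250 bases before to 50 after the annotated start site (RefSeq, GRCm38.p6). Both strands were searched for the ISRE letters GAAANNGAAA and the GAS letters TTCNNNGAA, and matches are printed in capitals, where an ISRE match on the opposite strand reads as the reverse complement. The whole windows of Gbp5 (chr3:142496684-142496983) and Gbp1 (chr3:142594597-142594896), plus strand, are given first.
Gbp5: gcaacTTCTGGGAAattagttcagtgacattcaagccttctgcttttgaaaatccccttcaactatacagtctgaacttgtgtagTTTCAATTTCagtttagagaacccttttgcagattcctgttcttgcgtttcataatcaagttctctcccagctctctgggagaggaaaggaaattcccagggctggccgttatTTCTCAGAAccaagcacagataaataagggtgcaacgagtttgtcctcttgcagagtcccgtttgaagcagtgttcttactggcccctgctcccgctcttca
Gbp1: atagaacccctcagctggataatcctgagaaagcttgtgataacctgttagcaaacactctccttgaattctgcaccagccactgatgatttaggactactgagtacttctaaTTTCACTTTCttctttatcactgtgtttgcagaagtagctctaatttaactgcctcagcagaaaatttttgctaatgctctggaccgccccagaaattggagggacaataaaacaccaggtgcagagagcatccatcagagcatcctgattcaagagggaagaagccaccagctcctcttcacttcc
The stretches around the ISRE matches of Gbp7 (chr3:142530258-142530317), Gbp3 (chr3:142559974-142560039) and Gbp2 (chr3:142620579-142620638), plus strand, follow.
Gbp7: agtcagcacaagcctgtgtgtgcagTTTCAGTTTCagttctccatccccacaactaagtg
Gbp3: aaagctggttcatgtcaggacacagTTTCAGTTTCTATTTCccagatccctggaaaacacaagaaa
Gbp2: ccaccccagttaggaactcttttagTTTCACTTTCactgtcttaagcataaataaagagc
All 5 genes held an ISRE match, which 3.44% of 32851 mouse promoter windows of this length held. The first base of the match lay at position -165 from the start site in Gbp5, -53 in Gbp7, -45 and -39 in Gbp3 (an overlapping pair), -137 in Gbp1 and -59 in Gbp2. A second annotated start site of Gbp3 had no match in its window. GAS matches were found in Gbp5, at -245 and -52, and in Gbp7, at -106 and -87, and 8.30% of all windows held one. Windows with both motifs made up 0.454% of all windows. A match is a description of the letters and not of binding, and binding was not measured here.

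**Figure D1:**
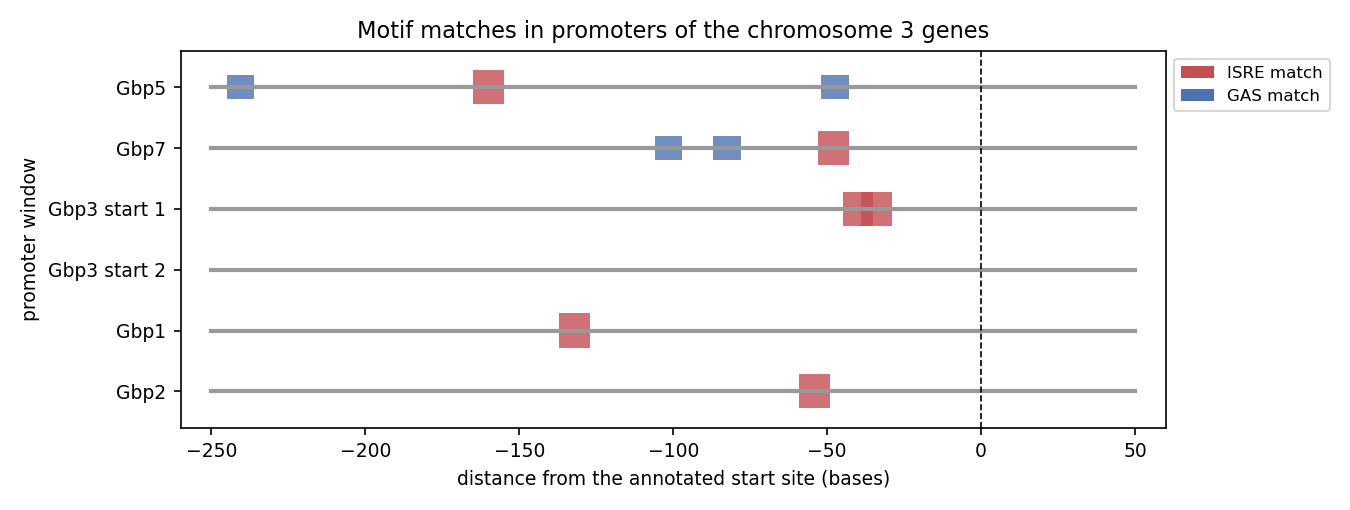
Positions of ISRE and GAS letter matches (boxes) in each promoter window of the chromosome 3 Gbp genes, with distance from the annotated start site in bases on the horizontal axis and 1 row for each start site. Every gene holds an ISRE match upstream of a start site, and GAS matches appear in the rows of Gbp5 and Gbp7.

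One library stood apart before any gene was considered. Over the 12921 genes tested, log2(FPKM + 1) in replicate 2 of the ΔNp63 group correlated with the other libraries at a median r of 0.847, against 0.915 to 0.956 for each of the other 7 libraries, and its weight in a fit that estimates library weights was 0.0567. The fits are therefore given with and without this library. Its highest r, 0.915, was with control replicate 1 and its lowest, 0.812, with replicate 1 of the ΔNp73 group. Trp63, the gene of p63, measured 5.21 and 3.38 FPKM in control libraries, 6.57, 1.05 and 9.91 in ΔNp63 libraries and 13.8, 11.3 and 6.38 in ΔNp73 libraries for its most abundant of 4 transcripts. ΔNp63 replicate 2 was below both controls for that transcript. It was also below them for transcripts with 0.777 FPKM (controls 3.44 and 7.37) and 0.0394 FPKM (controls 4.53 and 3.71). In these, replicates 1 and 3 measured 3.72 and 5.91, and 2.60 and 3.98 FPKM. For the remaining transcript replicate 2 lay between the controls, at 0.549 FPKM (controls 1.69 and 0.00970). The table does not say which transcripts start at the ΔN promoter, so these values do not check the ΔNp63 label, and Trp73 was not analysed here. Trp53 was listed in all 8 libraries, at 10.96 to 81.0 FPKM for its more abundant transcript and at 2.01 to 9.34 for the other. A value for each transcript does not show which exons were read. All 16 thymocyte and T cell markers were in the table, and 15 or 16 of them reached 1 FPKM in each library.

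In the control tumours the family spanned a wide range of levels. Gbp4 was highest at a mean of 21.1 FPKM and Gbp8 next at 19.8, and these 2 overlapped. Gbp9 (15.4), Gbp2 (14.7), Gbp6 (13.3) and Gbp7 (12.8) followed, each overlapping the next. Gbp5 (6.16) lay clear of its neighbours on both sides, Gbp3 (4.604) overlapped Gbp10 (4.24), and Gbp1 was last at 0.0970. In the ΔNp73 group the order by mean began with Gbp2 (45.4), Gbp6 (33.7) and Gbp9 (33.4), and Gbp4 (20.1) and Gbp8 (15.01) stood lower. Gbp1 was last there too, at 2.06 FPKM. In that group Gbp9 lay clear of Gbp7 (24.3), and every other neighbour in the order overlapped. In the ΔNp63 group the means ran from 26.1 FPKM for Gbp6 to 8.997 for Gbp10, and each gene overlapped the next in that order. Gbp1, at 11.8 FPKM, stood above Gbp5, Gbp3 and Gbp10 there.

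**Figure D2:**
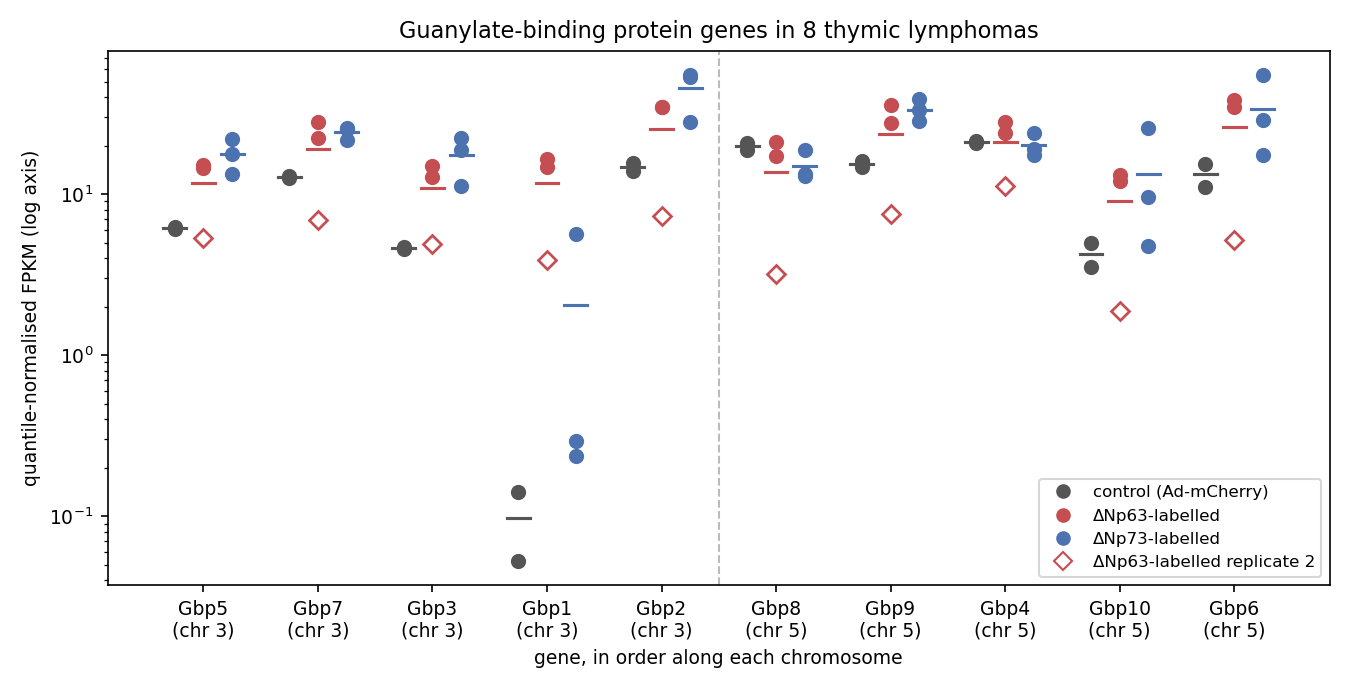
Quantile-normalised FPKM (log axis) of each Gbp gene in each of the 8 libraries, genes in chromosomal order, short lines at group means, with replicate 2 of the ΔNp63 group as an open diamond. The open diamond lies below both control libraries for 8 of 10 genes, and the ΔNp73 libraries lie above both controls for 7 of 10. Gbp1 is among these 7 with values below 1 FPKM in ΔNp73 replicates 1 and 2.

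For 7 of the 10 genes, Gbp1, Gbp2, Gbp3, Gbp5, Gbp6, Gbp7 and Gbp9, all 3 ΔNp73 libraries and ΔNp63 replicates 1 and 3 were above both controls. Of these, Gbp1 was below 1 FPKM in both controls and in ΔNp73 replicates 1 and 2. Gbp2, which in mice is known for coating the vacuole of the parasite Toxoplasma, measured 13.9 and 15.5 FPKM in control libraries, 34.5, 7.30 and 34.6 in ΔNp63 libraries and 54.8, 53.3 and 27.96 in ΔNp73 libraries. Replicate 2 of the ΔNp63 group was thus the only library below the controls, and the other 5 were at least 27.96 FPKM. The mean was 45.4 ± 15.1 FPKM (SD, n = 3) in the ΔNp73 group against 14.7 ± 1.16 (SD, n = 2) in controls, a ratio of 3.08. Gbp3 measured 4.67 and 4.54 FPKM in control libraries, 12.8, 4.89 and 14.9 in ΔNp63 libraries and 22.3, 18.9 and 11.2 in ΔNp73 libraries. Here even replicate 2 was slightly above both controls, so no library of either Cre group overlapped them. Gbp5, reported to promote assembly of the NLRP3 inflammasome, measured 6.24 and 6.09 FPKM in control libraries, 15.1, 5.34 and 14.5 in ΔNp63 libraries and 17.7, 22.0 and 13.4 in ΔNp73 libraries. Apart from replicate 2, the lowest Cre library for Gbp5 was above both controls. Gbp7, which has been linked to the phagocyte oxidase, measured 12.7 and 12.9 FPKM in control libraries, 22.2, 6.88 and 28.2 in ΔNp63 libraries and 25.4, 25.9 and 21.7 in ΔNp73 libraries. Gbp9, which lies on chromosome 5, measured 16.1 and 14.7 FPKM in control libraries, 27.7, 7.496 and 35.8 in ΔNp63 libraries and 33.3, 38.7 and 28.3 in ΔNp73 libraries. In Gbp7 and Gbp9 the ΔNp73 libraries were close together and replicate 2 of the ΔNp63 group was the lowest of all 8.

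Gbp6 and Gbp10 varied more within the ΔNp73 group. Gbp6 measured 11.1 and 15.4 FPKM in control libraries, 34.6, 5.19 and 38.4 in ΔNp63 libraries and 54.9, 28.9 and 17.4 in ΔNp73 libraries. Gbp10 measured 3.51 and 4.98 FPKM in control libraries, 12.0, 1.89 and 13.1 in ΔNp63 libraries and 25.6, 9.5998 and 4.77 in ΔNp73 libraries. Replicate 3 of the ΔNp73 group was the lowest of its group for both genes, and for Gbp10 it lay between the 2 controls. These 2 genes cannot be fully told apart by short reads. The transcript sequences compared were GENCODE ones matched by RefSeq accession, and Gbp11 was not compared. Of all windows of 50 bases in the transcript of Gbp6, 62.3% occurred exactly in that of Gbp10, and 45.8% of those of Gbp10 occurred in Gbp6. Their levels are uncertain to that extent. For the other genes the share of windows found in any other Gbp transcript was 19.2% in Gbp8, 9.98% in Gbp4 and at most 6.76% elsewhere, and it was 0 in Gbp5.

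Gbp4 and Gbp8, neighbours of these genes on chromosome 5, did not have all 3 ΔNp73 libraries above the controls. Gbp4 measured 21.5 and 20.8 FPKM in control libraries, 24.0, 11.2 and 27.99 in ΔNp63 libraries and 17.5, 23.9 and 19.0 in ΔNp73 libraries, so that the ΔNp73 libraries lay on both sides of the controls. Gbp8 measured 18.7 and 20.9 FPKM in control libraries, 17.2, 3.17 and 21.05 in ΔNp63 libraries and 12.9, 13.4 and 18.8 in ΔNp73 libraries. No ΔNp73 library exceeded the higher control for Gbp8, and replicate 2 of the ΔNp63 group was the lowest of all.

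Gbp1 was the gene nearest to 0 in the controls. It measured 0.141 and 0.0526 FPKM in control libraries, 14.8, 3.87 and 16.6 in ΔNp63 libraries and 0.238, 0.292 and 5.66 in ΔNp73 libraries. All 3 ΔNp63 libraries, replicate 2 included, were above 3 FPKM, while in the ΔNp73 group replicate 3 alone was above 1. The depth of the libraries is unknown, so the precision of values below 1 FPKM cannot be given. Of the transcript of Gbp1, 1.84% of the 50-base windows occurred in another Gbp transcript, all in Gbp2.

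The first comparison asks how tumours labelled as lacking ΔNp63 and given Cre differed from control tumours. No Gbp gene passed the threshold of an adjusted p of 0.05 in the fit over all 8 libraries (limma on log2(FPKM + 1), Benjamini-Hochberg over 12921 genes), in which 0.0929% of all genes passed. At an unadjusted p under 0.05, 1 Gbp gene was higher, Gbp1, against 5.96% of all genes. The log2 fold change of Gbp1 was 3.34 (SE 0.83, adjusted p = 0.222) and ran up to 5.70 with a pseudocount of 0.1, since its control values were near 0. Gbp3 followed at 0.96 (SE 0.45, adjusted p = 0.419), and Gbp8 was lowest at -0.81 (SE 0.65, adjusted p = 0.634). In all, 8 of 10 genes had a positive fold change and the median was 0.51, beside -0.02 over all genes tested. Gbp1 passed the filter on low values only through Cre libraries, so these counts and medians are descriptions. All 3 ΔNp63 libraries lay above both controls for 2 of 10 genes, Gbp1 and Gbp3, beside 12.6% of all genes.

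Without replicate 2 of the ΔNp63 group, 6 of 10 Gbp genes were higher at an adjusted p under 0.05, beside 11.7% of the 12782 genes tested in this fit, and 10.8% of them were lower. They were Gbp1 (3.93, SE 0.75, adjusted p = 0.0125), Gbp3 (1.41, SE 0.28, adjusted p = 0.0147), Gbp2 (1.18, SE 0.30, adjusted p = 0.0328), Gbp5 (1.14, SE 0.20, adjusted p = 0.00971), Gbp9 (0.99, SE 0.18, adjusted p = 0.0102) and Gbp7 (0.92, SE 0.14, adjusted p = 0.00622). All 5 genes of the chromosome 3 cluster were among them, and Gbp9 was the only one from chromosome 5. Gbp1 again passed the filter on low values only through Cre libraries, so these counts are descriptions too. Gbp6 stood at 1.41 (SE 0.45, adjusted p = 0.0657) and Gbp10 at 1.38 (SE 0.61, adjusted p = 0.147), and neither passed. Gbp8 stood at -0.05 (95% interval -0.51 to 0.40). The other 2 ΔNp63 libraries lay above both controls for 9 of 10 genes, all but Gbp8, beside 31.7% of all genes. Replicate 2 lay below both controls for 8 of 10 genes, all but Gbp1 and Gbp3, beside 47.2% of all genes. In bulk tissue, more cells of a type that expresses these genes and more RNA per cell cannot be told apart.

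The second comparison asks the same of tumours labelled as lacking ΔNp73, and it uses the same 2 control libraries as the first. No Gbp gene passed the threshold in the fit over all 8 libraries, in which 0.0542% of all genes passed. At an unadjusted p under 0.05, 3 Gbp genes were higher against 11.4% of all genes: Gbp3 (1.67, SE 0.45, adjusted p = 0.119), Gbp5 (1.36, SE 0.41, adjusted p = 0.139) and Gbp2 (1.501, SE 0.64, adjusted p = 0.235). Gbp10 (1.18), Gbp6 (1.15), Gbp9 (1.06), Gbp1 (1.005) and Gbp7 (0.87) had fold changes of similar size, and Gbp4 (-0.08) and Gbp8 (-0.39) were near or below 0. The median over the 10 genes was 1.11, beside -0.07 over all genes. All 3 ΔNp73 libraries lay above both controls for 7 of 10 genes, all but Gbp4, Gbp8 and Gbp10, beside 27.7% of all genes. Gbp1 is in this count with only 0.238 and 0.292 FPKM in ΔNp73 replicates 1 and 2, beside 0.141 and 0.0526 in controls. It passed the filter on low values only through Cre libraries, so this count and the median are descriptions.

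Leaving out replicate 2 of the ΔNp63 group left these fold changes as they were and narrowed the shared estimate of the spread. Then 5 of 10 genes were higher at an adjusted p under 0.05, with 16.8% of all genes higher and 16.1% lower: Gbp5 (adjusted p = 0.00272), Gbp7 (0.00374), Gbp9 (0.00399), Gbp3 (0.00407) and Gbp2 (0.00777). Gbp1, with 1 high and 2 low libraries in this group, had an adjusted p of 0.289. Gbp4 stood at -0.08 with a 95% interval of -0.42 to 0.26.

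**Figure D3:**
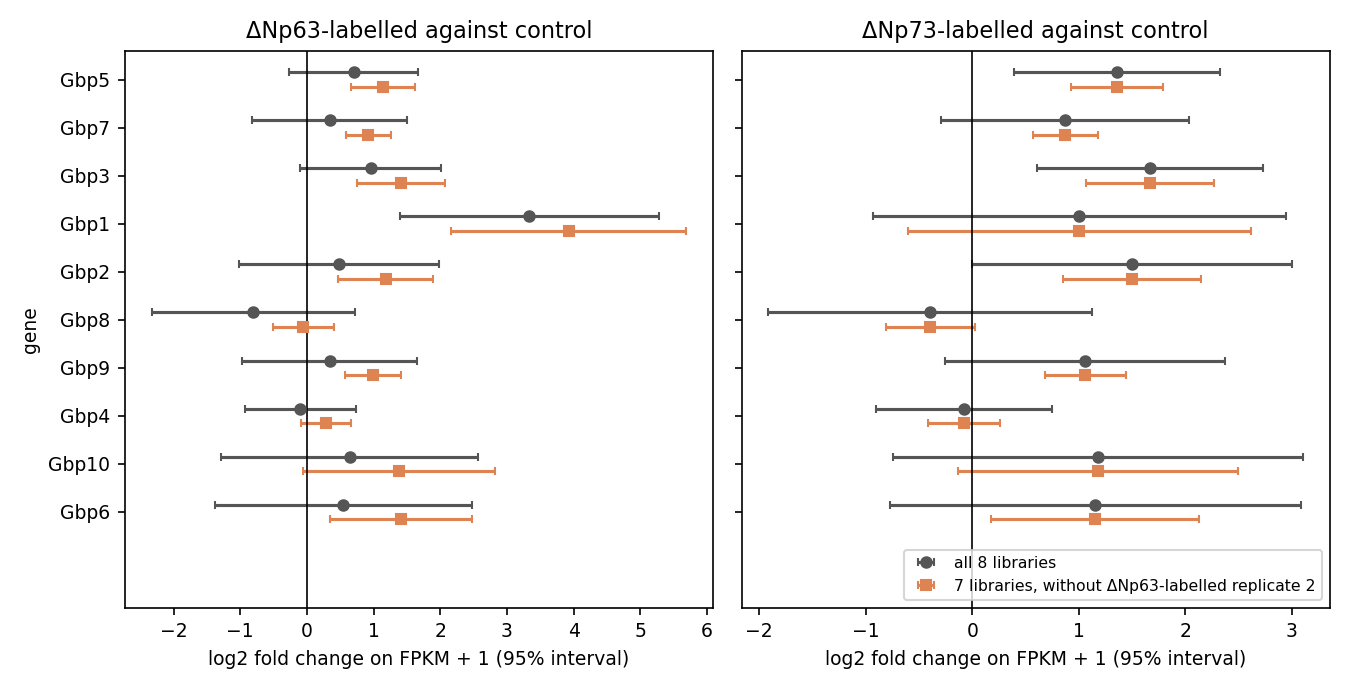
Log2 fold change on the FPKM + 1 scale with its 95% interval for each Gbp gene, in the ΔNp63 group (left panel) and the ΔNp73 group (right panel) against control, from all 8 libraries (circles) and from 7 libraries without replicate 2 of the ΔNp63 group (squares). The panels have their own horizontal scales, and the squares of Gbp5, Gbp7, Gbp3, Gbp2, Gbp9 and Gbp6 have intervals above 0 in both panels, of which those of Gbp6 did not pass after adjustment.

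The mean of both Cre groups was also set against the control group. No Gbp gene passed the threshold over 8 libraries, where 0.116% of all genes did, and 3 were higher at an unadjusted p under 0.05 (Gbp1, Gbp3 and Gbp5), beside 9.34% of all genes. The fold changes were 2.17 for Gbp1 (SE 0.74, adjusted p = 0.194), 1.31 for Gbp3 (SE 0.40, adjusted p = 0.168) and 1.03 for Gbp5 (SE 0.37, adjusted p = 0.209). Without replicate 2 of the ΔNp63 group, 7 genes were higher, beside 16.5% of all genes. These were the 6 called in the ΔNp63 group and Gbp6, at 1.28 (SE 0.38, adjusted p = 0.0399). Gbp1, in both counts, passed the filter on low values only through Cre libraries.

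The fourth comparison set the Cre groups against each other, without the control libraries in the difference. No Gbp gene passed the threshold, which 0.0542% of all genes did, and Gbp1 alone had an unadjusted p under 0.05, beside 10.5% of all genes in either direction. Gbp1 was lower in the ΔNp73 group by a log2 fold change of -2.33 (SE 0.74, 95% interval -4.07 to -0.60, adjusted p = 0.439). The other 9 genes lay between 0.02 for Gbp4 and 1.02 for Gbp2. Without replicate 2 of the ΔNp63 group the median of the 10 genes went from 0.57 to -0.12, and 6 of 10 had a negative fold change. Again no Gbp gene passed the threshold, beside 0.149% of all genes, and Gbp1 stood at -2.92 (SE 0.68, adjusted p = 0.143). With all 8 libraries weighted by limma's array weights, Gbp1 passed at -3.30 (adjusted p = 0.0283). It had entered this fit too only through Cre libraries above the filter on low values. Without weights and without replicate 2 of the ΔNp63 group, the narrowest intervals were those of Gbp7 and Gbp4. Gbp7 stood at -0.05 (95% interval -0.35 to 0.26) and Gbp4 at -0.36 (95% interval -0.70 to -0.02, adjusted p = 0.305).

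Across the 8 libraries most Gbp genes followed each other. The points share the same 8 libraries and their quantile normalisation, so the correlations of log2(FPKM + 1) are descriptions. The closest pairs were Gbp7 with Gbp9 (r = 0.99), which lie on different chromosomes, and Gbp6 with Gbp10 (r = 0.98), which share sequence. Gbp1 had a median r of 0.17 with the other 9 genes, with a highest value of 0.23. Without replicate 2 of the ΔNp63 group, Gbp8 had a median r of -0.54 with the others and Gbp4 one of 0.14, while Gbp2 kept 0.88 and Gbp3 0.89. The genes most like the family were sought among 8024 genes with a mean of at least 5 FPKM, by r with the mean of the standardised Gbp values over the 8 libraries. The first 5 were Lamp2 (r = 0.997), a lysosomal membrane protein, Cx3cr1 (0.995), a chemokine receptor, Il2rb (0.995), a subunit of the interleukin 2 receptor, Nlrc5 (0.993), an activator of MHC class I genes, and Ifi47 (0.992), an immunity-related GTPase. H2-T24, Pepd, Nkg7, Hes1 and Rnf181 completed the first 10, with r of at least 0.989. These 10 genes had r between 0.964 and 0.992 over the 7 libraries other than replicate 2 of the ΔNp63 group. The genes were picked by r over 8 libraries that include these 7, so this is no separate check. Lamp2, for example, measured 64.5 and 65.6 FPKM in control libraries, 136.1, 29.5 and 165.4 in ΔNp63 libraries and 147.9, 149.1 and 107.5 in ΔNp73 libraries. Such likeness was frequent, since 7.42% of the candidate genes had r above 0.9.

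The immunity-related GTPases, the partner family, were described by a list of 18 genes, of which 10 were in the table and 9 were tested. No gene of this list passed the threshold over 8 libraries in the comparisons of either Cre group with control. All 9 had positive fold changes in both, with medians of 0.54 in the ΔNp63 group and 1.40 in the ΔNp73 group. Without replicate 2 of the ΔNp63 group, 9 of 9 were higher at an adjusted p under 0.05 in each group, beside the shares of all genes given above. Irgm1, a regulator of autophagy and of the other family members, measured 15.4 and 16.3 FPKM in control libraries, 42.1, 14.9 and 47.5 in ΔNp63 libraries and 52.7, 62.9 and 33.1 in ΔNp73 libraries. Iigp1, an effector at parasite vacuoles, measured 10.4 and 8.57 FPKM in control libraries, 48.7, 8.11 and 53.2 in ΔNp63 libraries and 84.3, 48.5 and 28.6 in ΔNp73 libraries. In both, replicate 2 of the ΔNp63 group was the lowest library and the other 5 Cre libraries were above both controls. Several of these genes have near-identical copies, Tgtp2 and 9930111J21Rik1 among them, and their levels are uncertain. Of the closer relatives of the Gbp genes, Gbp11 measured 0.81 and 0.69 FPKM in control libraries, 4.43, 0.53 and 2.74 in ΔNp63 libraries and 5.38, 1.05 and 0.89 in ΔNp73 libraries, and it passed in neither fit. Atl2 and Atl3, also tested as relatives, had negative fold changes over 8 libraries. In the ΔNp63 and ΔNp73 groups these were -0.51 and -0.76 for Atl2 and -0.34 and -0.18 for Atl3, and neither gene passed. Over 7 libraries 1 of the relatives was lower in the ΔNp73 group at an adjusted p under 0.05. Among the giant and Mx GTPases, Gvin1 and Mx1 were tested and passed in neither.

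Of 18 genes of the interferon gamma signalling path, 17 were tested, and Ifng, the gene of the cytokine itself, was not analysed here. No gene of the path passed the threshold over 8 libraries, where the medians were 0.35 in the ΔNp63 group and 0.59 in the ΔNp73 group. Without replicate 2 of the ΔNp63 group, 7 were higher and 1 lower in the ΔNp63 group, and 12 were higher and 2 lower in the ΔNp73 group. Over all genes 11.7% were higher and 10.8% lower in the first of these fits and 16.8% and 16.1% in the second. Ifngr1, the ligand-binding chain of the receptor, was the gene lower in both. It measured 119.4 and 126.7 FPKM in control libraries, 56.1, 18.8 and 68.0 in ΔNp63 libraries and 81.5, 78.0 and 76.6 in ΔNp73 libraries, so all 6 Cre libraries were below both controls. Its log2 fold change was -1.54 in the ΔNp63 group over 8 libraries (SE 0.48, adjusted p = 0.281) and -0.98 over 7 (adjusted p = 0.00282). In the ΔNp73 group it was -0.64 (SE 0.48, adjusted p = 0.461, and 0.00615 over 7 libraries). Irf1, the transcription factor that binds ISRE elements, measured 24.5 and 23.2 FPKM in control libraries, 36.4, 22.7 and 47.4 in ΔNp63 libraries and 40.4, 42.9 and 36.5 in ΔNp73 libraries. As for Gbp2, ΔNp63 replicate 2 was below both controls and the other 5 Cre libraries above them, and Irf1 passed without replicate 2 in each group (adjusted p = 0.0124 and 0.00841). Socs1, an inhibitor of the path, measured 28.1 and 25.4 FPKM in control libraries, 30.8, 13.8 and 29.2 in ΔNp63 libraries and 10.9, 16.5 and 19.2 in ΔNp73 libraries. It was the second gene lower in the ΔNp73 group over 7 libraries (-0.78, SE 0.21, adjusted p = 0.0298).

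Other interferon targets, and genes of inflammasomes and cell-autonomous defence, were described by 3 further lists. They are to be read against the 11.7% and 16.8% of all genes higher over 7 libraries in the ΔNp63 and ΔNp73 groups. Of 18 tested genes linked to interferon gamma, 13 were higher in the ΔNp63 group and 14 in the ΔNp73 group without replicate 2 of the ΔNp63 group, and none passed over 8 libraries. Of 24 type I interferon-stimulated genes, all had positive fold changes in both groups over 8 libraries, with medians of 1.16 and 1.93. None of the 24 passed with all 8 libraries, whereas 21 and 22 were higher without replicate 2. Of 17 inflammasome and cell-autonomous defence genes, 7 were higher in the ΔNp63 group, and 9 were higher and 1 lower in the ΔNp73 group over 7 libraries. The medians of this last list over 8 libraries were 0.23 and 0.65. Replicate 2 of the ΔNp63 group did not sit alike in these lists: its median from the control mean was 0.07 for the type I genes and -0.23 for the genes linked to interferon gamma, beside -0.85 for the Gbp genes. Psme1 and Psme2, activators of the immunoproteasome, were highest of all 8 libraries there, at 217.0 and 170.6 FPKM.

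Markers of other cells also differed between the libraries. All 15 tested markers of macrophages and monocytes, of 19 listed and 16 in the table, had positive fold changes in both groups, and none passed over 8 libraries. Over 7 libraries 14 were higher in the ΔNp63 group and 15 in the ΔNp73 group. The summed level of the 16 genes was 452 to 527 FPKM in the controls, 1551, 834 and 1635 in the ΔNp63 group and 1251 to 1941 in the ΔNp73 group, and none of the 16 was at 0. Of the 834 FPKM in replicate 2 of the ΔNp63 group, Ly6c1 alone made up 375.0. Ly6c1 measured 44.6 and 57.7 FPKM in control libraries, 415.8 and 439.9 in ΔNp63 replicates 1 and 3 and 490.8, 415.8 and 143.8 in ΔNp73 libraries. In replicate 2 of the ΔNp63 group the median macrophage gene was at 0.29 from the control mean, where the median Gbp gene was at -0.85. The defining marker Adgre1 was among the 16 genes under its older symbol Emr1, and the 19 listed symbols include both names. Cd163 was not analysed here. Macrophages are known to express many Gbp genes, and the part of these cells, or of any other listed below, in the Gbp values was not tested. The 10 neutrophil genes in the table, of 11 listed, summed to 158 and 618 FPKM in the controls, 748, 56.5 and 733 in the ΔNp63 group and 935 to 1493 in the ΔNp73 group, and 1 of them was at 0 in replicate 2 of the ΔNp63 group. Their median from the control mean was -1.47 in that library and 0.77 to 1.70 in the other 5 Cre libraries. For 8 B cell genes the median was -1.36 in that library and 0.10 to 0.54 in the other 5, and for 7 thymic epithelial genes it was -1.24 and 0.18 to 1.05. For 6 dendritic cell genes it was -0.57 and 0.40 to 0.81, for 10 endothelial genes 0.09 and 0.43 to 1.04, and for 10 stromal genes 0.32 and 0.77 to 1.53. The stromal list includes Thy1, which is also in the thymocyte and T cell list and was below both controls in every Cre library. The summed level of 11 cytotoxic and natural killer genes was 169 to 192 FPKM in the controls, 461, 1044 and 415 in the ΔNp63 group and 342 to 629 in the ΔNp73 group. In replicate 2 of the ΔNp63 group the median of these genes from the control mean was -0.37 and the highest 4.46, so the sum and the median differ in sign there. In the opposite direction, the 12 proliferation genes summed to 1236 to 1263 FPKM in the controls, 326, 997 and 325 in the ΔNp63 group and 329 to 545 in the ΔNp73 group. All 12 were lower in each Cre group over 7 libraries, beside 10.8% and 16.1% of all genes. The 16 thymocyte and T cell genes summed to 5692 to 6483 FPKM in the controls, 3793, 2520 and 4870 in the ΔNp63 group and 2646 to 4220 in the ΔNp73 group. Replicate 2 of the ΔNp63 group thus had near-control proliferation genes, the lowest thymocyte sum and Gbp levels below control, with the median Gbp gene at -0.85 on the log2 scale from the control mean. The other 5 Cre libraries had medians of 0.78 to 1.23.

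**Figure D4:**
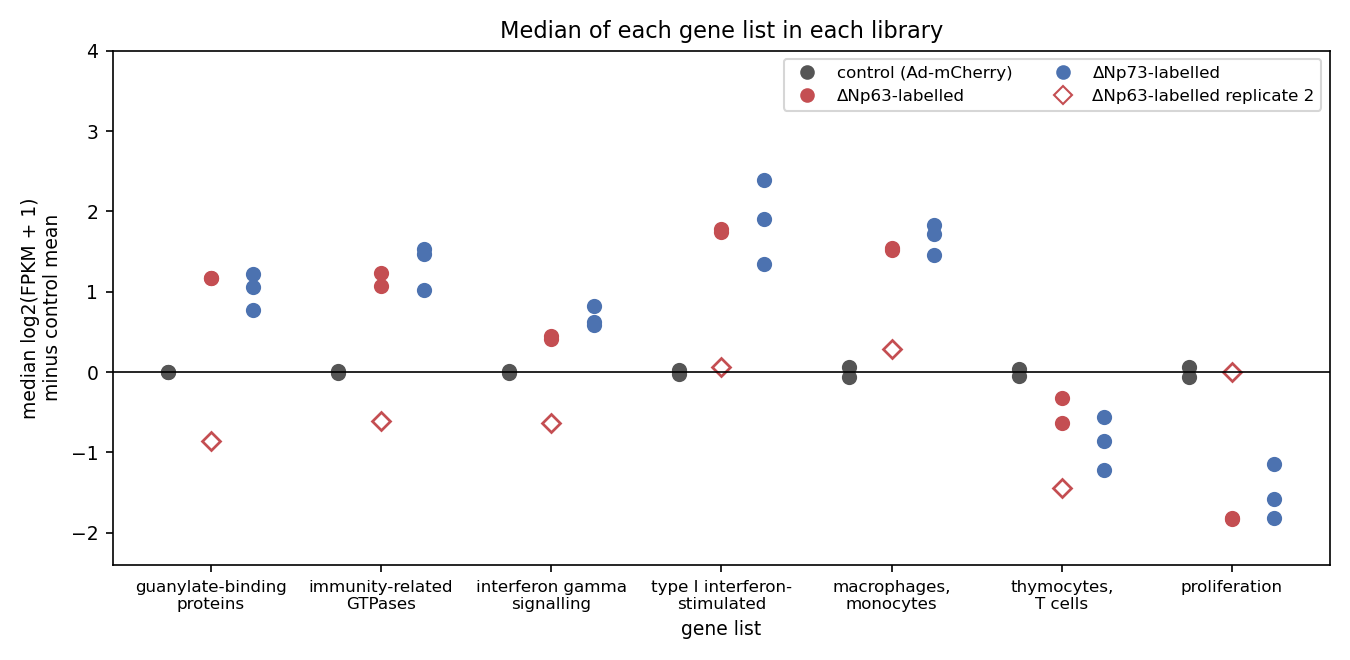
Median over the genes of each list of log2(FPKM + 1) minus the control mean, for each library (points), with replicate 2 of the ΔNp63 group as an open diamond. For the Gbp genes that library is at -0.85 while the other 5 Cre libraries lie between 0.78 and 1.23, and the proliferation list is lower in those 5 libraries.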

How the data were processed

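RNA was extracted from tumour tissue with TRIzol LS and made into libraries with the Illumina TruSeq RNA kit, per the labels' protocols. TopHat2 2.0, Cufflinks 2.0 and the mouse build mm9 are named in the submitters' processing notes, with no roles given. The authors deposited FPKM values for each RefSeq transcript that were quantile-normalised across libraries, per the file headers and the values themselves; 2329 low-ranked entries differed between libraries by over 1% at the same rank. FPKM are not counts, so depth, and with it counting error, is unknown. In the symbols, 35 spreadsheet dates were restored.

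One transcript per symbol, that with the highest mean, was kept. Genes at 1 FPKM or more in at least 2 libraries (12921) were fitted with limma 3.58.1 in R 4.3.3 on log2(FPKM + 1), with a mean for each group, all 8 libraries, 5 residual degrees of freedom, an empirical Bayes trend and two-sided tests, adjusted by Benjamini-Hochberg. The script was tested on simulated data. Fold changes on this scale understate the change of low genes. Alternatives changed the pseudocount, filter, entries, scaling, trend, weights, groups fitted and libraries. Motifs were searched in RefSeq promoters of GRCm38.p6, while gene order came from the same reference without coordinates, since the files use mm9.

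All Gbp genes present are named. Other genes could be named from the lists of closest relatives and of interferon gamma signalling, from the 4 genes of each other list with the smallest p in the mean comparison, and from the 10 genes most like the family. Genes most like Gbp1 were named as well. The Gbp genes and all lists were chosen with earlier results of these data known, so no count over them is independent support. One gene is not reported here.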

Additional observations from a re-analysis of the deposited data

How the results depend on the processing

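With limma array weights, which give replicate 2 of the ΔNp63 group little weight, the number of Gbp genes called went from 0 in each comparison to 8 in the ΔNp63 group against control, 8 in the ΔNp73 group against control, 8 in the mean of both and 1 in the ΔNp73 group against the ΔNp63 group. It was 5 in the ΔNp73 group when only the groups compared were fitted. Leaving out each library in turn gave 0 to 6, 0 to 5 and 0 to 7 called genes in the 3 comparisons with control, with the highest counts all without replicate 2 of the ΔNp63 group. The causes of these shifts were not tested beyond that library. Of 40 fold changes under 17 alternatives, those that changed sign were called in neither setting. Gbp4 became 0.22 (ΔNp63 group), 0.078 (ΔNp73 group), 0.15 (mean) and -0.15 (ΔNp73 against ΔNp63) with array weights, and 0.000135 in the ΔNp73 group after division by median ratios. In the ΔNp73 group against the ΔNp63 group, array weights gave -0.26 for Gbp10, -0.24 for Gbp6 and -0.33 for Gbp8. Leaving out libraries, Gbp4 ranged from -0.34 to 0.28, from -0.20 to 0.013, from -0.21 to 0.10 and from -0.36 to 0.26 in the 4 comparisons. In the ΔNp63 group Gbp7 ranged from -0.026 to 0.92 and Gbp9 from -0.068 to 0.99. In the ΔNp73 group against the ΔNp63 group the ranges were -0.20 to 1.05 for Gbp10, -0.26 to 1.08 for Gbp6, -0.045 to 0.90 for Gbp7 and -0.34 to 0.86 for Gbp8. No paired analysis was possible because the labels give no replicate numbers and those used here were assigned in accession order. With a filter of 1 FPKM in every library Gbp1 was not tested. Depth is unknown, so the counting error of low values, such as those of Gbp1 in control tumours, cannot be given.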

Other observations

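The arrangement of Gbp1 over the libraries, high in all 3 ΔNp63 libraries and in replicate 3 of the ΔNp73 group, was looked for in other genes after its values were seen. Of 12283 named genes tested, 9 had a Pearson r above 0.9 with Gbp1 over the 8 libraries, given as a description. Fbxw10, an F-box gene, had r = 0.953, with 1.59 and 1.54 FPKM in control libraries, 4.22, 3.83 and 4.69 in ΔNp63 libraries and 1.67, 1.17 and 3.99 in ΔNp73 libraries. Next came Snx21 (r = 0.933), Atxn7 (0.930), Tor1b (0.915) and Rps18 (0.915). After these came Xaf1 (0.912), an interferon-stimulated gene linked to cell death. Its levels were 4.74 and 4.33 FPKM in control libraries, 82.0, 32.9 and 108.4 in ΔNp63 libraries and 17.7, 19.7 and 79.5 in ΔNp73 libraries. Unlike Gbp1, Xaf1 was above both controls by over 10 FPKM in every ΔNp73 library.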
